A study of Homo sapiens with 3 samples.

Results

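The nuclear genes for the machinery of oxidative phosphorylation were followed in THP-1 cells, an established cell line from a human monocytic leukemia. Phorbol myristate acetate (PMA), which switches on protein kinase C, makes these cells stop dividing, attach and take on features of macrophages. Members were the genes whose symbol in the platform annotation begins with NDUFA, NDUFB, NDUFC, NDUFS, NDUFV, UQCR, ATP5F, ATP5M or ATP5P, or names SDHA to SDHD, a COX4 to COX8 subunit or CYC1, without pseudogenes. This gave 88 of the 19775 genes named on the array, read by 169 probe sets. Of these genes 77 encode subunits, 8 are NDUFAF assembly factors of complex I that the symbol prefix brings in, and 3 are non-coding neighbours of NDUF genes. A further 15 probe sets are listed with a member and another gene together and were set aside, so subunits read only by those are not analysed here.

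RNA came from 3 cultures, with 1 array each. They are called undifferentiated, PMA 3 days and PMA 8 days after their labels. Both PMA cultures were started in 200 nM PMA, which was withdrawn after 24 h (PMA 3 days) or 72 h (PMA 8 days), and the cells were then kept without it for 3 and 5 more days. The times in the PMA 3 days protocol add up to more than its label, and time in PMA, time since PMA and time in culture cannot be told apart. All 3 were THP-1 cells grown in 10% serum and seeded in plates, and RNA was taken 16 h after a change to 2% serum, though for undifferentiated cells the protocol is unclear on that step. The RNA was labelled from 200 ng per array.

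Oxidative phosphorylation is the last stage of respiration. Complex I (NADH dehydrogenase) and complex II (succinate dehydrogenase) pass electrons to coenzyme Q, complex III (the cytochrome bc1 complex) passes them to cytochrome c, and complex IV (cytochrome c oxidase) passes them to oxygen, while the protons pumped on the way drive complex V, the ATP synthase. A few core subunits are made inside the mitochondrion from its own DNA, and the members described here are made from nuclear genes and imported. In macrophages the balance between this route and glycolysis is known to shift with activation.

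Since each condition has 1 array, differences between cultures carry no error or test, no p-values are given, and each value describes 1 culture. Signals are in the linear units of the array, and those below the median of all values, 149.8, were raised to that floor before log2 ratios were taken. Where the dimmer array is at the floor the fold is a bound and reads "at least". "Higher" and "lower" mean at least 2-fold unless 1.5-fold is stated. The one spread that could be measured was between probe sets of the same member, with a within-gene SD of the log2 ratios to undifferentiated of 0.335 at PMA 3 days and 0.327 at PMA 8 days, and of 0.223 between the PMA cultures. It covers neither culture nor labelling differences. In bulk RNA, fewer cells with a transcript and less of it per cell cannot be told apart.

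The arrays were of like quality. The share of probe sets above the floor was 48.5 to 51.4%, and the 3' to 5' signal ratio was 1.36 to 1.49 for actin and 1.10 to 1.16 for GAPDH. Of 11 monocyte and macrophage markers 8 were above the floor in undifferentiated cells and 10 at each PMA time, with summed signals of 134170.0 in undifferentiated cells, 229933 at PMA 3 days and 179407 at PMA 8 days. Of the markers of other cell types, 0 of 4 epithelial and at most 1 of 5 T cell markers were above it on any array, 3 of 4 B cell markers were on each array with signals of up to 503.8, and 1 or 2 of 3 erythroid markers were with signals of up to 442. Of 6 fibroblast and endothelial markers 1 or 2 were above it, among them PECAM1, which monocytes also make, at 21258 in undifferentiated cells, 20720.2 at PMA 3 days and 18665 at PMA 8 days. Proliferation markers differed with the groups: all 10 were at least 2-fold lower at PMA 3 days than in undifferentiated cells, with a median log2 ratio of -1.59, and 2 of 10 were at PMA 8 days, with a median of -0.69. Their part in the values below was not tested.

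Of the 88 members 80 were above the floor on all 3 arrays, 2 on 2, 1 on 1 and 5 on none (ATP5MF, whose brighter probe set is shared with another gene, and the complex IV subunits COX6B2, COX7A1, COX7B2 and COX8C). Few of the others differed by 2-fold between the cultures. Of 82 members measured (above the floor on either array or both), 0 were higher and 1 was lower at PMA 3 days than in undifferentiated cells. Among all genes 10.3% were higher and 10.6% lower in that comparison. At PMA 8 days 0 members were higher and 0 lower of 83, against 9.71% and 8.33% of all genes. Between PMA 8 days and PMA 3 days the counts were again 0 and 0 of 83, where all genes had 1.36% and 0.937%.

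At the milder 1.5-fold limit, 2 members were higher and 2 lower at PMA 3 days, beside 17.8% and 23.7% of all genes. At PMA 8 days 5 were higher and 2 lower, beside 17.4% and 20%. In PMA 8 days over PMA 3 days 3 were higher and 1 was lower, beside 7.09% and 4.75%. The members' shares were thus below the background against undifferentiated cells in both directions. Subunit genes are strongly expressed, and the 1639 other genes whose mean signal lay between the quartiles of the subunits', 6395 to 27749.5, gave 11.5% higher and 4.7% lower at PMA 3 days and 10.4% and 3.23% at PMA 8 days. For PMA 8 days over PMA 3 days the other genes in this range gave 0.244% and 0.122%, so a count of 0 members there is close to what genes of this signal showed.

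The members' median log2 ratio was -0.07 at PMA 3 days over undifferentiated, beside -0.12 for all genes, and 0.05 at PMA 8 days over undifferentiated, beside -0.07. Under quantile normalization these pairs were -0.10 beside -0.05 and -0.0031 beside -0.03, so at PMA 3 days the side of all genes on which the members stood depended on the scaling. Scaling to the poly-A labelling controls moved the median of all genes at PMA 3 days to -0.39 and that of the members to -0.37. On that scale 16 members were lower by 1.5-fold and 0 higher, and under quantile normalization 4 and 3 were. The shares of all genes past 1.5-fold were not counted on these scales, so these counts cannot be set against a background. A log2 ratio to undifferentiated within 0.25 of 0 was found for 51 of 82 members at PMA 3 days (62.2%) and 53 of 83 at PMA 8 days (63.9%). The shares were 29.4% and 31.6% of all genes and 35.3% and 37.3% of other genes in the subunits' signal range. Between PMA 8 days and PMA 3 days 61 of 83 members (73.5%) lay within 0.25, against 57.2% of all genes. Other genes in the signal range gave 74.0% there, so the members were no steadier than those.

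**Figure D1:**
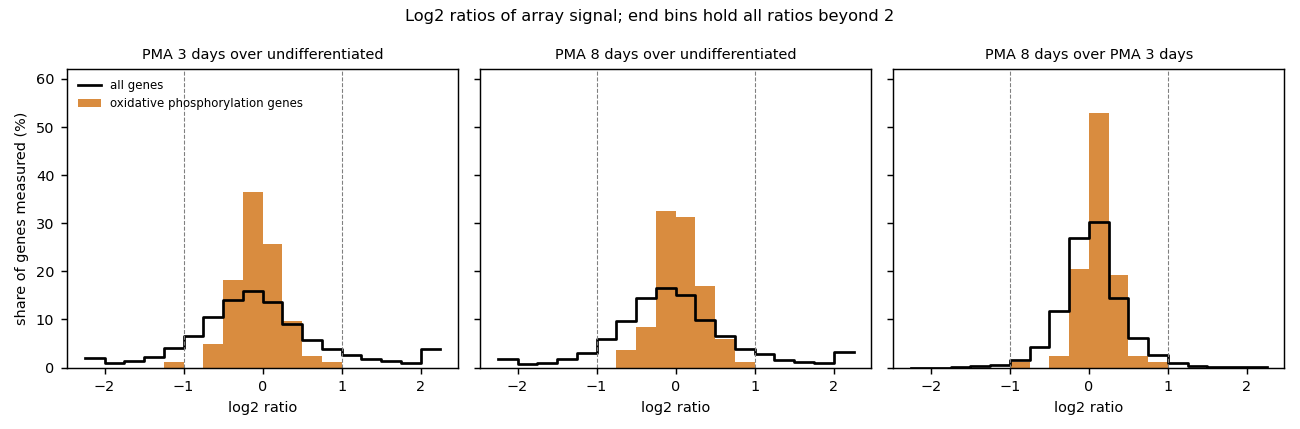
Share of genes (vertical axis, %) by log2 ratio of array signal (horizontal axis) for oxidative phosphorylation genes (filled bars) and all genes (black line) in the 3 comparisons, with dashed lines at 2-fold and end bins holding all larger ratios. The filled bars stand between the dashed lines in all panels apart from 1 gene, ATP5F1D at -1.21 in PMA 3 days over undifferentiated, while the line for all genes reaches well past them in the panels against undifferentiated cells.

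Complex I is the largest of the complexes. Its 33 subunit genes among the members ranged in log2 ratio from -0.57 to 0.81 at PMA 3 days (median -0.03) and from -0.63 to 0.90 at PMA 8 days (median 0.08). NDUFA9, a supernumerary subunit at the junction of the membrane and matrix arms, had signals of 2147 in undifferentiated cells, 3765 at PMA 3 days and 4009.6 at PMA 8 days. It was the one member above the spread of probe sets by 2 SD at both PMA times, 1.75-fold over undifferentiated at PMA 3 days and 1.87-fold at PMA 8 days, still short of 2-fold. It is read by 1 probe set, so no second reading checks it.

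NDUFA5, a supernumerary subunit of the matrix arm, followed with 8246 in undifferentiated cells, 12424 at PMA 3 days and 12438 at PMA 8 days. Both PMA arrays were 1.51-fold above the undifferentiated one. NDUFB3 and NDUFB6, subunits of the membrane arm, also had their lowest signal in undifferentiated cells. NDUFB3 gave 8831 in undifferentiated cells, 12951 at PMA 3 days and 12247 at PMA 8 days, and NDUFB6 gave 10205 in undifferentiated cells, 13088 at PMA 3 days and 15617 at PMA 8 days. For NDUFB6 the PMA 8 days ratio passed 1.5-fold (1.53-fold) and the PMA 3 days ratio did not (1.28-fold). NDUFA12, which joins complex I late in its assembly, had its highest signal at PMA 3 days, with 15985 in undifferentiated cells, 21821 at PMA 3 days and 18406 at PMA 8 days. NDUFA8, a subunit of the membrane arm facing the intermembrane space, was instead highest at PMA 8 days, with 7415 in undifferentiated cells, 7273 at PMA 3 days and 10228 at PMA 8 days.

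The 5 core subunits among the members, which include carriers of the flavin and of iron-sulfur clusters, did not move as a group. NDUFS1, the largest iron-sulfur subunit, had 3413 in undifferentiated cells, 4426 at PMA 3 days and 5268 at PMA 8 days, a ratio of 1.54-fold at PMA 8 days over undifferentiated by its brightest probe set and a log2 ratio of 0.29 by the next. A dimmer NDUFS1 probe set, also above the floor on all 3 arrays, gave -0.48 at PMA 3 days and -0.26 at PMA 8 days. NDUFS7, which holds the last cluster before coenzyme Q, had 5779 in undifferentiated cells, 3888 at PMA 3 days and 3729.7 at PMA 8 days by its brightest probe set. That was 1.49-fold below undifferentiated at PMA 3 days and 1.55-fold below at PMA 8 days. Its only other probe set lay under the floor except at PMA 8 days, where it was above undifferentiated (signal 208 against 109). NDUFV1, which binds NADH and the flavin, had 6874 in undifferentiated cells, 5249.8 at PMA 3 days and 5479.8 at PMA 8 days, and its partner NDUFV2 had 8679 in undifferentiated cells, 8409.5 at PMA 3 days and 9361 at PMA 8 days. Neither reached 1.5-fold.

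On the other side at PMA 3 days were the supernumerary subunits NDUFA7 (1.45-fold below undifferentiated) and NDUFB10 (1.43-fold), both short of 1.5-fold. NDUFA7 gave 3587 in undifferentiated cells, 2471 at PMA 3 days and 3210.5 at PMA 8 days. NDUFB10 gave 17191 in undifferentiated cells, 11988 at PMA 3 days and 15312 at PMA 8 days. Both had PMA 8 days signals between the other two arrays. NDUFA13, also known as GRIM-19 for a role in interferon-induced cell death, had its lowest signal at PMA 8 days, with 24755 in undifferentiated cells, 22519.8 at PMA 3 days and 19375 at PMA 8 days. NDUFS6, a small zinc-binding subunit, had 14843 in undifferentiated cells, 12728 at PMA 3 days and 15919 at PMA 8 days. The ratios of the measured subunits and assembly factors are drawn in the plot by complex.

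**Figure D2:**
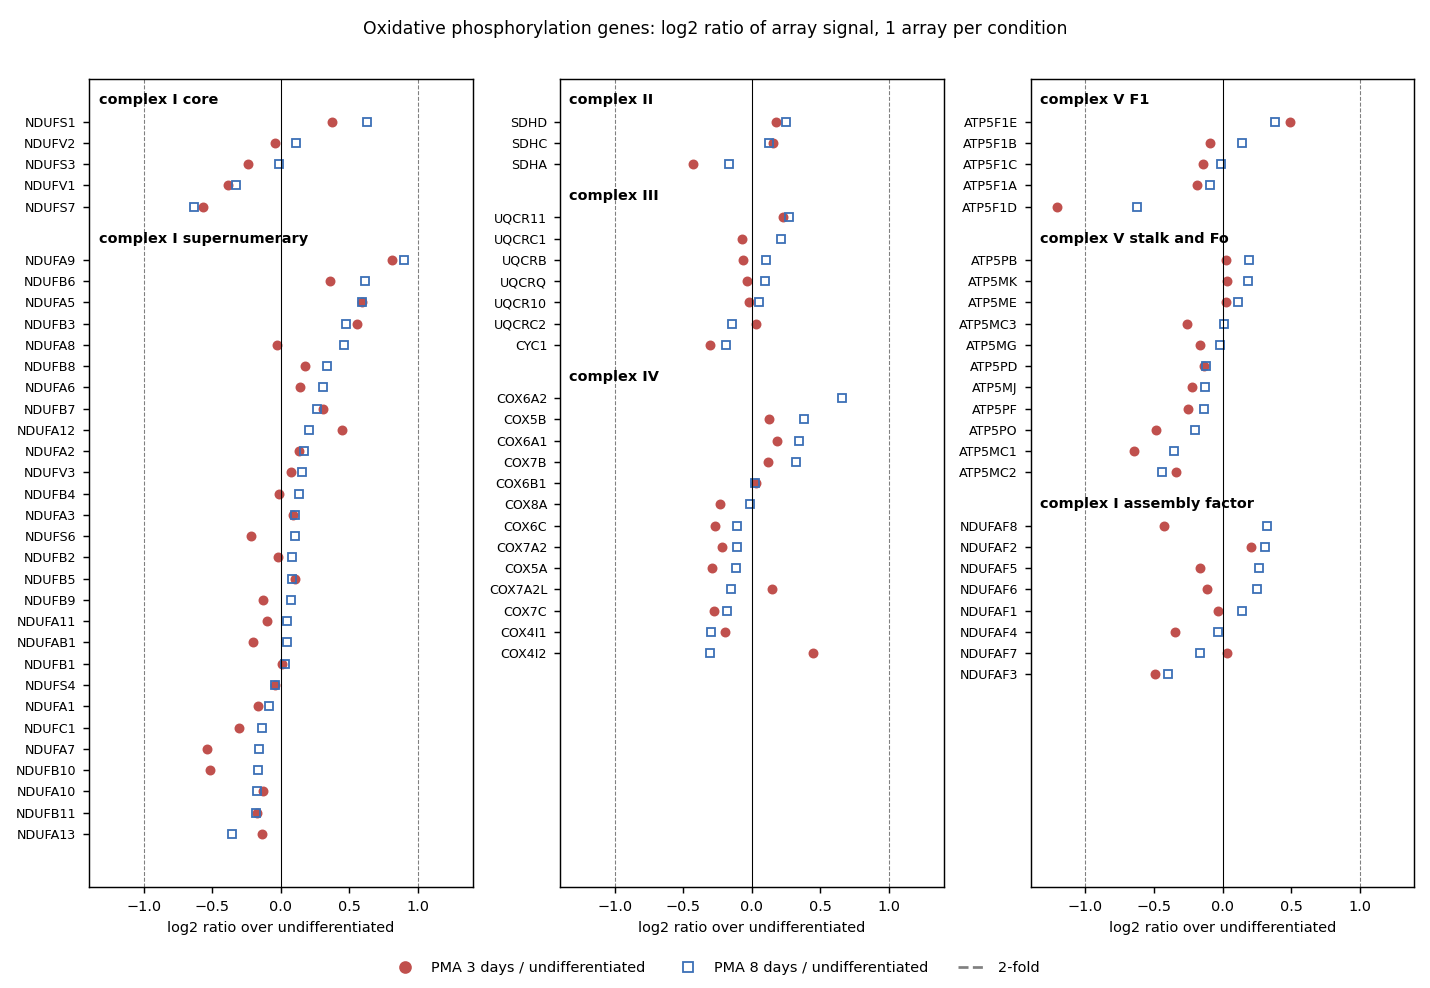
Log2 ratio of array signal (horizontal axis) for each measured subunit and NDUFAF assembly factor (rows) by complex, at PMA 3 days over undifferentiated (filled circles) and PMA 8 days over undifferentiated (open squares), from 1 array per condition, with dashed lines at 2-fold. The non-coding members are not drawn. ATP5F1D at PMA 3 days is the one point past a dashed line, and NDUFA9 at 0.90 for PMA 8 days comes nearest to the line on the other side.

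The ends of the complex I range can be set beside their start regions. NDUFA9 and NDUFS7, the highest and the lowest complex I subunit at PMA 8 days over undifferentiated, are shown because both hold AAGATGG, the core of a motif of the transcription factor YY1 known at promoters of respiratory genes, although their signals went opposite ways. The windows run from 250 bases before to 50 bases after the RefSeq gene start on GRCh38.p14, written 5′ to 3′ along the gene, with matches to this core and to the ETS and NRF1 cores given below in capitals. That of NDUFA9 is chr12:4648864-4649163, plus strand, and that of NDUFS7 is chr19:1383657-1383956, plus strand.
NDUFA9: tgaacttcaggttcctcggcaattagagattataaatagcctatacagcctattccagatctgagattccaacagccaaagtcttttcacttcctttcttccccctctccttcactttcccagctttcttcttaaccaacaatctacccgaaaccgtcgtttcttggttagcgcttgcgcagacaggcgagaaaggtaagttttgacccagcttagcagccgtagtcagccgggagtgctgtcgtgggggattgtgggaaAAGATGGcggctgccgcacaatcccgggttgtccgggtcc
NDUFS7: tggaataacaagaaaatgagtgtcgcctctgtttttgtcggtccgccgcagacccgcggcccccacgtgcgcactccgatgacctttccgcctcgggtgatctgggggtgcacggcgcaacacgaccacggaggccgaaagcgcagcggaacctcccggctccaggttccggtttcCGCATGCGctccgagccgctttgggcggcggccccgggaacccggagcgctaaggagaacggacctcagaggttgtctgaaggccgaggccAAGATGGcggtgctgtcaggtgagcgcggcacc

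Such motifs were counted over all subunit genes. RefSeq windows were found for 65 of 77 subunits and searched on both strands for AAGATGG (YY1), CCGGAAG (the core bound by ETS factors such as GABPA) and GCATGCG (a core of the NRF1 motif, whose opposite strand reads CGCATGC). YY1 matches stood in 15 subunit windows (23.1%) against 6.4% of 15842 windows of protein-coding genes. ETS matches stood in 18 (27.7%) against 14.2%, and NRF1 matches in 12 (18.5%) against 5.14%. In 0 subunit windows did matches of different motifs overlap. The 4 windows found for tissue-restricted complex IV subunits held 0 matches, where 23% of protein-coding windows hold any, so that 4 windows are too few to set apart from these. A match is a string of letters and was not tested as a binding site. The YY1 and NRF1 cores counted are shorter than the forms searched first, and windows of other genes with signals like the subunits' were not counted.

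Complex II feeds electrons from succinate, as a step of the TCA cycle, and has no subunit made in the mitochondrion. SDHA, its flavoprotein, had 6739 in undifferentiated cells, 5009 at PMA 3 days and 6005 at PMA 8 days, a log2 ratio of -0.43 at PMA 3 days and -0.17 at PMA 8 days over undifferentiated. The membrane anchors leaned the other way. SDHC had 10303 in undifferentiated cells, 11467 at PMA 3 days and 11242 at PMA 8 days, and SDHD had 11456 in undifferentiated cells, 12968 at PMA 3 days and 13606 at PMA 8 days, each with the undifferentiated signal lowest. All of these ratios, from the brightest probe set of each gene, lay within 1.5-fold. Other SDHC probe sets passed it both ways. One of similar brightness gave log2 ratios of 0.76 at PMA 3 days and 0.67 at PMA 8 days over undifferentiated, and the dimmest gave -1.14 and -0.68.

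The 7 complex III genes among the members varied little. They spanned log2 ratios from -0.30 to 0.23 at PMA 3 days and from -0.19 to 0.27 at PMA 8 days. CYC1, cytochrome c1, had 17347 in undifferentiated cells, 14069 at PMA 3 days and 15204 at PMA 8 days and the lowest ratio of the group at both PMA times. UQCRC2, a core protein, was highest at PMA 3 days and lowest at PMA 8 days, with 18317 in undifferentiated cells, 18743 at PMA 3 days and 16579 at PMA 8 days. UQCRB, which lies at the coenzyme Q site, had 50973 in undifferentiated cells, 48728 at PMA 3 days and 54838 at PMA 8 days, and UQCRQ had 24251 in undifferentiated cells, 23695 at PMA 3 days and 25971 at PMA 8 days. UQCR11, at 22718 in undifferentiated cells, 26564 at PMA 3 days and 27482 at PMA 8 days, had the highest ratio of the group at both times by its brightest probe set. The probe set shared by UQCRH and UQCRHL, set aside here, lay below the ranges of the 7 genes. Its log2 ratios over undifferentiated were -0.48 at PMA 3 days and -0.34 at PMA 8 days.

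In complex IV the nuclear subunits surround a catalytic core made in the mitochondrion. COX5B, which binds zinc, had 24659.7 in undifferentiated cells, 26939.5 at PMA 3 days and 32165 at PMA 8 days, and its 3 brightest probe sets gave log2 ratios of 0.38 to 0.42 at PMA 8 days over undifferentiated. Its dimmest probe set gave 0.01 there and -0.40 at PMA 3 days over undifferentiated. COX7B had 25254 in undifferentiated cells, 27435 at PMA 3 days and 31652 at PMA 8 days. A dimmer COX7B probe set went the other way, with log2 ratios over undifferentiated of -0.47 at PMA 3 days and -0.39 at PMA 8 days. By their brightest probe sets COX5A, COX6C and COX7C had log2 ratios of -0.29, -0.27 and -0.27 at PMA 3 days over undifferentiated and nearer to 0 at PMA 8 days. A COX7C probe set of similar brightness gave 0.0028 at PMA 3 days and 0.05 at PMA 8 days, and a dimmer one -0.38 and -0.21. A dimmer COX5A probe set gave -0.34 and -0.33. COX7A2L, which helps join complexes III and IV into supercomplexes, had its lowest signal at PMA 8 days, with 12167 in undifferentiated cells, 13465 at PMA 3 days and 10977 at PMA 8 days. By its brightest probe set, none of the complex IV subunits above the floor on all 3 arrays passed 1.5-fold in any comparison.

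Several subunits of complex IV exist as pairs, a form used in most tissues and a form restricted to a tissue. COX6A2 and COX7A1 are the heart and skeletal muscle forms, COX4I2 is best known from lung, and COX6B2, COX7B2 and COX8C are testis forms. The common forms were above the floor in all 3 cultures. COX4I1 had 39029.5 in undifferentiated cells, 34097 at PMA 3 days and 31713 at PMA 8 days, COX6A1 had 26681 in undifferentiated cells, 30253 at PMA 3 days and 33976 at PMA 8 days, and COX6B1 had 19760.0 in undifferentiated cells, 20242 at PMA 3 days and 20139 at PMA 8 days. COX7A2 and COX8A were likewise steady, with 48883 in undifferentiated cells, 42089 at PMA 3 days and 45387 at PMA 8 days for COX7A2 and 31093 in undifferentiated cells, 26545 at PMA 3 days and 30794 at PMA 8 days for COX8A.

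The restricted forms were at or near the floor. COX6B2, COX7A1, COX7B2 and COX8C lay below it on all 3 arrays, with signals no higher than 137, so no ratio is given for them. COX4I2 had 185 in undifferentiated cells, 252 at PMA 3 days and 112 at PMA 8 days. COX6A2 had 72.2 in undifferentiated cells, 125 at PMA 3 days and 237 at PMA 8 days, so its signal passed the floor at PMA 8 days alone and was at least 1.58-fold that of the undifferentiated array. Signals this close to the floor of 149.8 are weak readings, and with a floor at the 60th percentile of all values neither gene is measured. The common forms stayed within 1.5-fold in every comparison by their brightest probe sets.

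**Figure D3:**
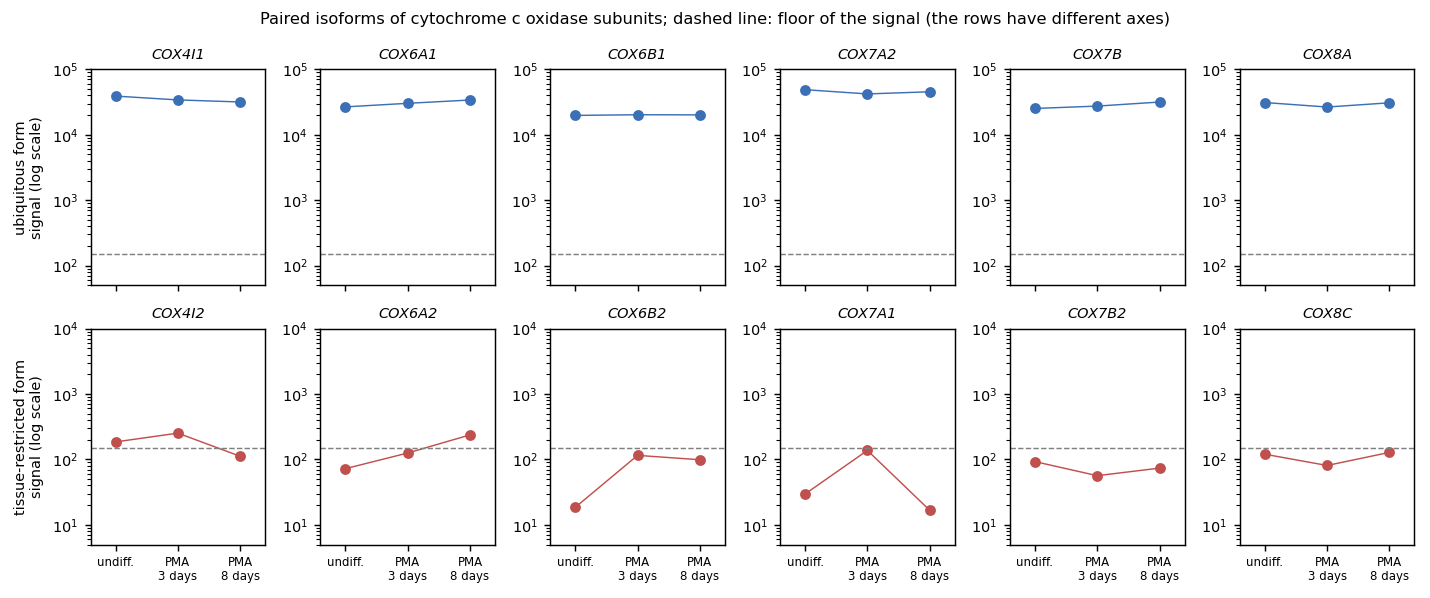
Array signal (vertical axes, log scale) in undifferentiated cells, at PMA 3 days and at PMA 8 days (1 array each) for the common form (upper row) and the tissue-restricted form (lower row) of 6 subunit families of complex IV, with the floor of 149.8 as a dashed line. The common forms are far above the floor on every array, and only COX4I2 and COX6A2 among the restricted forms cross it.

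The start regions of the COX6A and COX8 pairs differ in their letters. Those of COX6A1 (chr12:120437863-120438162, plus strand) and COX6A2 (chr16:31428311-31428610, minus strand) and of COX8A (chr11:63974370-63974669, plus strand) and COX8C (chr14:93346932-93347231, plus strand) are shown, on GRCh38.p14 and taken from RefSeq as above, because in these pairs the common form holds a motif match and the restricted form none. They are a choice among the pairs, made with the matches known, and not all other pairs show this. Capitals mark the ETS core, which reads CTTCCGG where it lies on the other strand, and the NRF1 core.
COX6A1: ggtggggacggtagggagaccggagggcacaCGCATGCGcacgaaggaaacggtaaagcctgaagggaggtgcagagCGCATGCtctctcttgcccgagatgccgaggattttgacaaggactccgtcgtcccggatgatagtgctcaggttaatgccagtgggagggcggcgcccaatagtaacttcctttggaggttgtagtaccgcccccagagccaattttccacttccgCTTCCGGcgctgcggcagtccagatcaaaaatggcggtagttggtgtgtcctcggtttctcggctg
COX6A2: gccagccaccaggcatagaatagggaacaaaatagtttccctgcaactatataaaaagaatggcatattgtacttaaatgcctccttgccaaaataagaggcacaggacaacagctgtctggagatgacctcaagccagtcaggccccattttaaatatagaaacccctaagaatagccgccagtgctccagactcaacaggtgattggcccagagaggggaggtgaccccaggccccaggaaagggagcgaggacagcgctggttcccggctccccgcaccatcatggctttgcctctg
COX8A: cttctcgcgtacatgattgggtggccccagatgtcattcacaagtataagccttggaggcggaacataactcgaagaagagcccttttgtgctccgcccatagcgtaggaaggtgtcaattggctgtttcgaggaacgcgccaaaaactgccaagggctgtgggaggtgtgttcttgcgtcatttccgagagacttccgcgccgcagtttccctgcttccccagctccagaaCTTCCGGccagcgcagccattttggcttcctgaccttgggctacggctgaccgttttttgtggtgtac
COX8C: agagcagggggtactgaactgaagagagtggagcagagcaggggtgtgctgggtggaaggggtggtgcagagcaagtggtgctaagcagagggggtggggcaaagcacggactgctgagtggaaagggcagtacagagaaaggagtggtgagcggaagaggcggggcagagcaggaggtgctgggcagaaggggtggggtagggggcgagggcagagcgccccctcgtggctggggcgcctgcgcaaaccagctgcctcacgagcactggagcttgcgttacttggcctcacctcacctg

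COX6A1 and COX8A each hold an ETS match and COX6A1 also NRF1 matches, while COX6A2 and COX8C hold no match to any of the motifs searched. The windows hold 22 CpG pairs in COX6A1 against 5 in COX6A2, and 18 in COX8A against 10 in COX8C. In COX7B and COX7B2 neither window holds a match. COX6B1 holds an ETS match and COX6B2 holds none, as in the pairs shown, but the order of CpG counts is turned in COX6B1 (16) and COX6B2 (31). COX7A2, a common form, holds no match and 0 CpG pairs. The median over all subunit windows was 23, and over windows of protein-coding genes 22.

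The ATP synthase held the one member that passed 2-fold against undifferentiated cells. ATP5F1D, the delta subunit of the central stalk that turns inside the F1 head, had 5932 in undifferentiated cells, 2565 at PMA 3 days and 3859 at PMA 8 days, 2.31-fold lower at PMA 3 days and 1.54-fold below undifferentiated at PMA 8 days. A second, dimmer probe set was also below undifferentiated at both times, with 1439 in undifferentiated cells, 775 at PMA 3 days and 449 at PMA 8 days. The probe sets differed on what came between the PMA times: by the brightest one PMA 8 days was 1.5-fold above PMA 3 days, and by the other its log2 ratio was -0.79. ATP5F1E, the epsilon subunit of the same stalk, leaned the other way with 33344 in undifferentiated cells, 46966 at PMA 3 days and 43554 at PMA 8 days, 1.41-fold above undifferentiated at PMA 3 days.

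The catalytic and structural subunits of the F1 head varied little. ATP5F1A (alpha) had 53023 in undifferentiated cells, 46680.0 at PMA 3 days and 49842 at PMA 8 days, ATP5F1B (beta) had 30547 in undifferentiated cells, 28683 at PMA 3 days and 33746 at PMA 8 days, and ATP5F1C (gamma) had 27053 in undifferentiated cells, 24485 at PMA 3 days and 26861 at PMA 8 days. No ratio among these reached 1.2-fold. Of the 11 measured genes of the membrane part and the outer stalk, 8 had a PMA 3 days signal below the undifferentiated one, with a median log2 ratio of -0.23, and the median at PMA 8 days was -0.12.

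The rotor ring of the ATP synthase is made of subunit c, which the 3 genes ATP5MC1, ATP5MC2 and ATP5MC3 encode as the same mature protein with different import sequences. ATP5MC1 had 6772 in undifferentiated cells, 4329 at PMA 3 days and 5286 at PMA 8 days, 1.56-fold lower at PMA 3 days and 1.28-fold below undifferentiated at PMA 8 days. ATP5MC2 had 27759 in undifferentiated cells, 21957 at PMA 3 days and 20429.8 at PMA 8 days, and ATP5MC3 had 33595 in undifferentiated cells, 28101 at PMA 3 days and 33878 at PMA 8 days. At PMA 8 days ATP5MC3 was level with undifferentiated cells by this probe set, while a dimmer one had 1587 in undifferentiated cells, 926 at PMA 3 days and 849.9 at PMA 8 days, a log2 ratio of -0.90. ATP5PO, a subunit of the outer stalk that holds the F1 head in place, had 29736 in undifferentiated cells, 21196 at PMA 3 days and 25915 at PMA 8 days.

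The small differences between the PMA cultures leaned one way. PMA 8 days signals were above PMA 3 days signals for 63 of 83 members (75.9%), with a median log2 ratio of 0.11. The same held for 54.7% of all genes, whose median was 0.03, and for 50.5% of the other genes in the subunits' signal range. By complex the medians were 0.09 (I), 0.07 (II), 0.11 (III), 0.16 (IV) and 0.14 (V). The size of the lean depended on the probe set. Among the 34 members with at least 2 probe sets above the floor, the median was 0.15 by the brightest and 0.052 by the second-brightest, which was the lower of the pair in 25 of them (73.5%, against 50.7% of all such genes). The poly-A labelling controls differed by -0.29 in this comparison, and their part in it was not tested.

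Brighter and dimmer probe sets of the same member gave different ratios. Among the 34 members with at least 2 probe sets above the floor, the dimmest gave a lower log2 ratio than the brightest in 22 at PMA 3 days over undifferentiated and in 26 at PMA 8 days over undifferentiated, with medians of -0.25 and -0.11 for the dimmest and -0.04 and 0.05 for the brightest. In all genes with such probe sets the dimmest was lower in 53.4% and 53.2%. The probe sets of SDHC were furthest apart, from -1.14 to 0.76 over 7 probe sets at PMA 3 days over undifferentiated. A dim probe set of UQCR11 had 745 in undifferentiated cells, 451 at PMA 3 days and 942 at PMA 8 days, while its brightest had 22718 in undifferentiated cells, 26564 at PMA 3 days and 27482 at PMA 8 days. For NDUFB10, below undifferentiated by its brightest probe set, the other probe set gave a log2 ratio of 0.20.

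**Figure D4:**
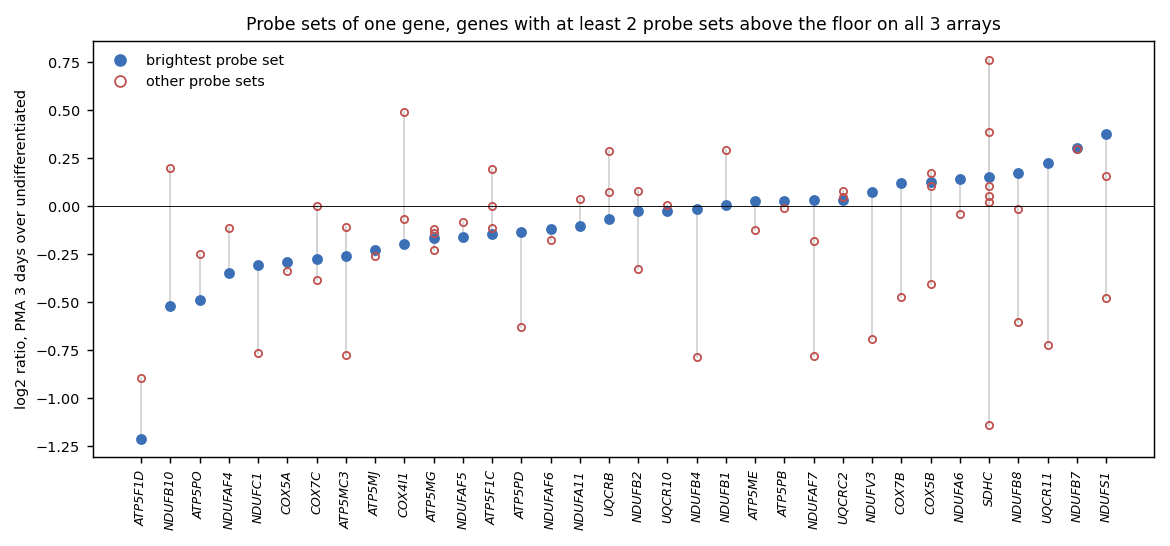
Log2 ratio of array signal at PMA 3 days over undifferentiated (vertical axis) for each probe set of the members with at least 2 probe sets above the floor on all 3 arrays (horizontal axis), with filled points for the brightest probe set of a gene, open points for its others and a grey line joining them. Probe sets of SDHC reach from -1.14 to 0.76, and both of ATP5F1D (-1.21 and -0.89) lie below 0.

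Assembly factors build complex I without staying in it. NDUFAF8 differed most between the PMA cultures, with 5775 in undifferentiated cells, 4291 at PMA 3 days and 7234 at PMA 8 days, 1.69-fold higher at PMA 8 days than at PMA 3 days. NDUFAF5, which modifies a core subunit, had 747 in undifferentiated cells, 668 at PMA 3 days and 898 at PMA 8 days. NDUFAF3, which acts with NDUFAF4 early in assembly, was below undifferentiated at both PMA times, with 7743 in undifferentiated cells, 5503 at PMA 3 days and 5877 at PMA 8 days, and NDUFAF4 had 3277 in undifferentiated cells, 2577 at PMA 3 days and 3197 at PMA 8 days. NDUFAF6, which acts on the membrane arm, had 2751 in undifferentiated cells, 2539 at PMA 3 days and 3280.3 at PMA 8 days. NDUFAF7 had 1296 in undifferentiated cells, 1325 at PMA 3 days and 1158 at PMA 8 days. It was the 1 of the 8 NDUFAF genes with a PMA 8 days signal below that at PMA 3 days (log2 ratio -0.19), though its dimmest probe set gave 0.38. Of 12 other complex I assembly genes 0 were higher and 1 lower at PMA 3 days (median log2 ratio -0.41), the lower one being ECSIT (2.1-fold), which also acts in toll-like receptor signalling, and 0 and 0 passed at PMA 8 days (median -0.38).

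Of the factors for the other complexes few passed 2-fold, in counts near or below the 10.6% lower at PMA 3 days and 8.33% at PMA 8 days of all genes. SDHAF3, which matures the iron-sulfur subunit of complex II, was 3.5-fold lower at PMA 3 days and 2.42-fold lower at PMA 8 days, with 808 in undifferentiated cells, 231 at PMA 3 days and 333 at PMA 8 days. It was 1 of 10 genes for complexes II and V, of which no other passed at either time (medians -0.04 and -0.05). UQCC3 for complex III was 2.42-fold lower at PMA 3 days, with 1293 in undifferentiated cells, 533 at PMA 3 days and 799 at PMA 8 days, alone among 7 (median -0.46), and 0 of these passed at PMA 8 days (median -0.21). Of 26 factors for complex IV none passed at PMA 3 days (median -0.05), and PET117 was 2.06-fold lower at PMA 8 days (median -0.04).

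Genes made from mitochondrial DNA were read by probe sets for 7 subunits, of which 0 passed 2-fold or 1.5-fold. Their median log2 ratio was -0.27 at PMA 3 days and -0.19 at PMA 8 days over undifferentiated. COX1, the catalytic subunit of complex IV, had 90837 in undifferentiated cells, 65897 at PMA 3 days and 67114 at PMA 8 days, the largest change in the group, and ND6 of complex I, at 4216 in undifferentiated cells, 5476 at PMA 3 days and 5386 at PMA 8 days, was the one gene above undifferentiated.

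Among regulators of mitochondrial biogenesis the counts past 2-fold were near those of all genes (10.3% higher and 10.6% lower at PMA 3 days, 9.71% and 8.33% at PMA 8 days) or below them. None of 22 was higher at PMA 3 days and 3 were lower (median log2 ratio -0.32), and at PMA 8 days the counts were 0 and 3 (median -0.30). MYC, a growth factor-driven transcription factor, was 5.22-fold lower at PMA 3 days and 3.76-fold lower at PMA 8 days, with 9225 in undifferentiated cells, 1767 at PMA 3 days and 2453 at PMA 8 days. GABPB2, a partner of the ETS factor GABPA, was 2.55-fold and 2.51-fold lower, with 1638 in undifferentiated cells, 641 at PMA 3 days and 653 at PMA 8 days.

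TFAM, which packs mitochondrial DNA and starts its transcription, was 2.14-fold lower at PMA 3 days and had a log2 ratio of -0.70 at PMA 8 days, with 4616 in undifferentiated cells, 2161 at PMA 3 days and 2838 at PMA 8 days. POLG2, the accessory subunit of the mitochondrial DNA polymerase, had 2353 in undifferentiated cells, 1207 at PMA 3 days and 1109 at PMA 8 days, 2.12-fold lower at PMA 8 days. GABPA itself, at 2846 in undifferentiated cells, 2755 at PMA 3 days and 2305 at PMA 8 days, stayed within 1.5-fold. So did YY1, at 16935 in undifferentiated cells, 18141 at PMA 3 days and 18743 at PMA 8 days, and NRF1, the factor of the motif above, had a log2 ratio of -0.54 at PMA 3 days, with 978 in undifferentiated cells, 673 at PMA 3 days and 746 at PMA 8 days. PPARGC1A, the coactivator PGC-1alpha, was below the floor in undifferentiated cells and above it in both PMA cultures, at least 1.45-fold and 1.89-fold, with 13.7 in undifferentiated cells, 217 at PMA 3 days and 283 at PMA 8 days. MYC is also a gene of proliferating cells, and the proliferation markers given above had medians on the same side. Their part in it was not tested.

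Entry of fuel into the TCA cycle showed the largest difference of all genes listed around the chain. PDK4, a kinase that switches off pyruvate dehydrogenase, was 9.94-fold higher at PMA 3 days and 3.66-fold higher at PMA 8 days, with 893 in undifferentiated cells, 8884 at PMA 3 days and 3267 at PMA 8 days, and so was 2.72-fold lower at PMA 8 days than at PMA 3 days. PC, pyruvate carboxylase, which refills the cycle, was at least 4.87-fold and 3.29-fold higher, since its undifferentiated signal of 78.7 lay under the floor. Of the sister kinases of PDK4, PDK3 was 2.22-fold lower at PMA 3 days and PDK2 2.1-fold higher at PMA 8 days by their brightest probe sets. Altogether 2 of 23 genes were higher and 1 lower at PMA 3 days (median -0.04), and 3 higher and 0 lower at PMA 8 days (median 0.16). With 10.3% and 10.6% of all genes at PMA 3 days and 9.71% and 8.33% at PMA 8 days, these counts were not far from the background. The enzymes of the cycle itself, such as citrate synthase, CS (9461 in undifferentiated cells, 7360.4 at PMA 3 days and 7470.2 at PMA 8 days), all stayed within 2-fold.

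The remaining lists had medians near or below 0, beside -0.12 at PMA 3 days and -0.07 at PMA 8 days for all genes. Their counts past 2-fold stand beside 10.3% of all genes higher and 10.6% lower at PMA 3 days, and 9.71% and 8.33% at PMA 8 days. Mitochondrial ribosome genes gave 0 higher and 2 lower of 75 at PMA 3 days (MRPL24 and MRPS26, median -0.25) and 0 and 1 at PMA 8 days (MRPS33, median -0.14). Import and carrier genes gave 1 lower of 31 at PMA 3 days, the prohibitin PHB2 (2.01-fold, median -0.37), and none at PMA 8 days (median -0.17). Among 21 genes of electron carriers, coenzyme Q synthesis and uncoupling (medians -0.16 and -0.12), PDSS1 of coenzyme Q synthesis was 2.1-fold lower at PMA 3 days, DHODH of pyrimidine synthesis 2.13-fold lower at PMA 8 days and COQ10B, a coenzyme Q binding protein, 2.11-fold higher at PMA 8 days. AOX1, at least 4.02-fold and 4.79-fold higher, is in humans a cytosolic aldehyde oxidase and no part of the chain.

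Among glycolysis genes HK1 and PFKM were higher at both PMA times. HK1, the hexokinase that opens the pathway, was 2.28-fold and 2.35-fold higher, with 2805 in undifferentiated cells, 6407 at PMA 3 days and 6585 at PMA 8 days, and PFKM, a form of phosphofructokinase, was 3.39-fold and 3.18-fold higher, with 386 in undifferentiated cells, 1308 at PMA 3 days and 1227 at PMA 8 days. HK3, the myeloid hexokinase, was at least 4.87-fold lower at both times and ALDOC 2.13-fold and 2.11-fold lower. In all 2 of 24 genes were higher and 2 lower at PMA 3 days (median -0.17), and 3 of 23 were higher, HK2 joining them (2.07-fold), and 2 lower at PMA 8 days (median 0.05). All genes had 10.3% higher and 10.6% lower at PMA 3 days and 9.71% and 8.33% at PMA 8 days, so these counts too were near the background. Both comparisons share the undifferentiated array, so their counts are not independent.

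**Figure D5:**
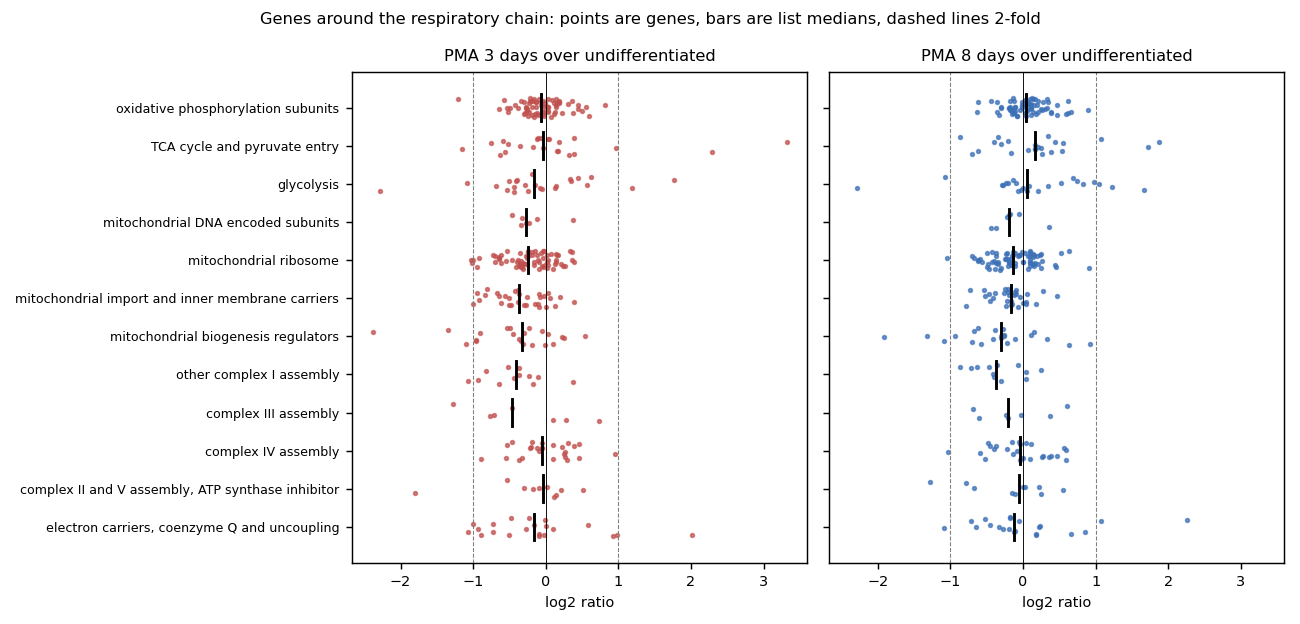
Log2 ratios of array signal (horizontal axis) at PMA 3 days over undifferentiated (left) and PMA 8 days over undifferentiated (right) for oxidative phosphorylation subunits and 11 lists of related genes (rows), each point 1 gene, black bars the list medians and dashed lines 2-fold. The subunits lie close to 0 in both panels, with PDK4 (3.31) and MYC (-2.38) furthest out on either side in the left panel and AOX1 (2.26) and HK3 (-2.28), both bounds, in the right.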

How the data were processed

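Total RNA of 3 THP-1 cultures was hybridised to Affymetrix expression arrays, 1 per condition. The values are the deposited probe set intensity signals on a linear scale, made by the authors with MAS5, per the submitters' processing notes, and its version and settings are not given in the sources used here. A 2% trimmed mean near 1000 was found on each array, so the arrays had been scaled alike. No detection calls were used, and the number of arrays limits the precision.

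Of 54675 probe sets 62 are controls, 41091 have 1 gene symbol, 1801 several and 11721 none in the platform annotation. By Entrez ID 41037 of the probe sets with 1 symbol matched RefSeq's gene table, and 0 symbols changed. The brightest probe set (mean log2 signal) stood for a gene, signals under the 50th percentile of all values were set to it, and a gene with both arrays at this floor was not measured. No test between conditions was possible, so counts past 2-fold and 1.5-fold are given beside those of all genes. Python 3.11.15, numpy 2.4.6, pandas 2.3.3 and matplotlib 3.10.9 were used, and the counting was tested on simulated data.

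Members, lists and alternatives were chosen with earlier results of these data known. Members named were those past 2-fold, the 10 largest ratios per comparison and direction above the floor on both arrays, all of complex II, isoform pairs and paralogs, and those with probe sets over 1 log2 unit apart. In other lists up to 4 genes past 2-fold were named per comparison. Named outside this rule, for their role or for the ratio itself, after values were seen, were ATP5F1A, ATP5F1B, ATP5F1C, COX5A, COX6C, COX7C, CYC1, NDUFV2, UQCRB, UQCRQ, COX1, ND6, GABPA, YY1, NRF1, PPARGC1A, CS and UCP2. Motif windows came from RefSeq, and the YY1 and NRF1 cores reported are shorter than the forms searched first.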

Additional observations from a re-analysis of the deposited data

Results flagged for a closer look

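NDUFAF8, an assembly factor of complex I, drew attention because its ratios over undifferentiated cells ran opposite ways at the PMA times: the log2 ratio was -0.43 at PMA 3 days and 0.33 at PMA 8 days. With 1 array per condition the difference was not tested. Only the brightest of its 3 probe sets gave these values, since the others lay under the floor on all 3 arrays, with signals of 18.6 in undifferentiated cells, 76.5 at PMA 3 days and 84.4 at PMA 8 days for the brighter of them.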

How the results depend on the processing

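Leaving out a replicate was not run, and no paired analysis was possible because each condition has 1 array. Of the alternative values for the members' counts and medians 64 stayed within the limits set for them (1.5 times for counts, 0.1 log2 for medians) and 17 did not. The cause was not tested.

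At PMA 3 days over undifferentiated the 1.5-fold count was 4 members, 7 under quantile normalization and 16, all lower, on scaling to the poly-A controls. The median log2 ratio there became 0.052 on centring to all genes and -0.37 on the poly-A scale, where that of all genes was -0.39. At PMA 8 days over PMA 3 days the poly-A scale gave 1 member past 2-fold and 10 past 1.5-fold. The members' median was then 0.40, beside 0.30 for all genes, so most of this move was shared by all genes. The shares of all genes past these folds were not counted on that scale. With the floor at the 40th percentile 1 member (COX6A2) passed 2-fold at PMA 8 days over undifferentiated. Between the PMA cultures 1 (COX4I2, lower at PMA 8 days) passed it there, and with the 60th percentile 2 passed 1.5-fold in the last comparison.

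Using the median over probe sets, 1 member passed 2-fold at PMA 8 days over undifferentiated. The second-brightest probe set, which left 37 or 38 members, gave 0 past 2-fold at PMA 3 days and 1 at PMA 8 days against undifferentiated cells, and 1 past 2-fold and 2 past 1.5-fold at PMA 8 days over PMA 3 days. Without probe sets that may read several transcripts (IDs ending in _x_at or _s_at) the 2-fold count was 0 at PMA 3 days against undifferentiated cells and 1 between the PMA cultures. ATP5F1D has only such probe sets and drops out there, so that count of 0 is no check on its ratio. The log2 ratio of ATP5F1D at PMA 8 days over PMA 3 days reversed to -0.10 by the median over probe sets and -0.79 by the second-brightest, and that of NDUFS7 at PMA 8 days over undifferentiated to 0.47 by its other probe set (second-brightest, and without _x_at or _s_at). Among values of single genes 81 kept their side of the threshold and 16 no longer passed it.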

Other observations

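The non-coding symbols that the prefix brings in were dim. NDUFV1-DT, which lies beside NDUFV1, had 334 in undifferentiated cells, 471 at PMA 3 days and 495 at PMA 8 days, and its log2 ratios of 0.50 at PMA 3 days and 0.57 at PMA 8 days were opposite in sign to those of NDUFV1 (-0.39 and -0.33). NDUFB2-AS1 had 237 in undifferentiated cells, 176 at PMA 3 days and 159.8 at PMA 8 days, and NDUFV2-AS1 had 156 in undifferentiated cells, 202 at PMA 3 days and 127 at PMA 8 days, both near the floor.

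Probe sets set aside because they name several genes include the brighter reading of ATP5MF, shared with ARMC2-AS1, at 25366 in undifferentiated cells, 19176 at PMA 3 days and 23685 at PMA 8 days. Those listed with NDUFS8 and 2 microRNA genes read 6321 in undifferentiated cells, 8192 at PMA 3 days and 9611 at PMA 8 days by the brighter one, and the reading of UQCRH together with UQCRHL was 57459 in undifferentiated cells, 41251 at PMA 3 days and 45309 at PMA 8 days. UCP2, a carrier known for uncoupling and abundant in myeloid cells, had 12911 in undifferentiated cells, 24399 at PMA 3 days and 23423 at PMA 8 days, short of 2-fold at both PMA times.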
